A study of Mus musculus with 7 samples.

Results

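The genes described here are 9 components of retinoic acid signalling, namely the retinol receptor gene Stra6, the retinaldehyde reductase gene Dhrs3, the retinaldehyde dehydrogenase gene Aldh1a2, the retinoic acid hydroxylase gene Cyp26a1, the binding protein genes Crabp1 and Crabp2, and the receptor genes Rara, Rarb and Rarg. They were chosen by name for their role. Each of the 9 symbols matched 1 Ensembl gene among the 29267 genes of the RNA-Seq tables. There were 7 libraries, 1 per group and so no replicates, and no test between groups could be made. The question the libraries address is how cells differ after reprogramming in mES or in 5C medium, and after further culture in naïve or primed medium.

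Except for R1 ESCs-primed, the libraries came from OG2 MEFs, which are mouse embryonic fibroblasts carrying an Oct4GFP transgene. Its egfp reporter is driven by an Oct4 promoter without the proximal enhancer, so that the sort reads this promoter and not the endogenous gene. These fibroblasts were infected with retroviruses for the factors Oct4, Sox2, Klf4 and c-Myc. For mES-Oct4GFP+ and mES-Oct4GFP- the cells were kept in mES medium, which holds serum, LIF and vitamin C. For 5C-Oct4GFP+ and 5C-Oct4GFP- they were kept in 5C medium, which is chemically defined, without serum or B27, and holds N2, bFGF, LIF and vitamin C. Both pairs were sorted by FACS for GFP on day 15. For 5C-Oct4GFP+ (naive), 5C-Oct4GFP+ cells were cultured in naïve medium with N2, B27, LIF, CHIR99021, PD0325901 and vitamin C. For 5C-Oct4GFP+ (primed) they were cultured in primed medium, which holds N2, B27, bFGF and activin A, and lost their GFP. R1 ESCs-primed are cells of the mouse embryonic stem cell line R1 taken to the primed state on feeder fibroblasts in primed medium. They were then kept on serum-coated plates, with CHIR99021 and IWR1 in place of bFGF and activin A. The methods of the paper do not state whether the 5C-derived primed cells had the same change. The labels give 20 passages for the last 3 groups. Neither retinoic acid nor any other retinoid was measured in the cells or in the media.

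Retinoic acid is made from retinol (vitamin A) in the cell. Retinol enters with the help of STRA6, is oxidized reversibly to retinaldehyde, which DHRS3 turns back into retinol, and retinaldehyde is oxidized irreversibly to retinoic acid by ALDH1A enzymes such as ALDH1A2. CRABP1 and CRABP2 carry retinoic acid in the cytoplasm, CRABP2 towards the nucleus, and CYP26A1 hydroxylates it for removal. In the nucleus, the receptors RARα, RARβ and RARγ bind DNA as dimers with an RXR and switch from repression to activation when they bind retinoic acid. Cyp26a1, Rarb, Dhrs3, Stra6 and Crabp2 are known targets of these receptors as well as parts of the pathway. Pluripotent stem cells differentiate when retinoic acid is added.

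Retinoic acid receptors are known to bind pairs of a 6-base half-site. The promoters of the genes were therefore searched for 2 half-sites in the same orientation, each of them AGGTCA, the variant AGTTCA, the variant GGGTCA or the variant GGTTCA, with 5, 2 or 1 bases between them, on both strands. The windows ran from 250 bases before to 50 bases after each RefSeq start (GRCm38.p6), and 8 of the 9 genes had 17 such windows. Crabp2 had no window. The 2 windows that held a match, 1 each of Cyp26a1 and Rarb, are shown 5′ to 3′ on the strand of the gene, with the matched bases in capitals. The Cyp26a1 window was chr19:37697558-37697857 on the plus strand and the Rarb window chr14:16575427-16575726 on the minus strand.
Cyp26a1: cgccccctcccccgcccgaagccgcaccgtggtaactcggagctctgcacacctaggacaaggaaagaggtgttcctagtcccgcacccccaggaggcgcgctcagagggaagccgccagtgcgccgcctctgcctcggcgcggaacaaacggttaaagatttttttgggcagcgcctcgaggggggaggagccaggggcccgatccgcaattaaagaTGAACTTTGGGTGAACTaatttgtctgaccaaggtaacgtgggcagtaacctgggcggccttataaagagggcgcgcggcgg
Rarb: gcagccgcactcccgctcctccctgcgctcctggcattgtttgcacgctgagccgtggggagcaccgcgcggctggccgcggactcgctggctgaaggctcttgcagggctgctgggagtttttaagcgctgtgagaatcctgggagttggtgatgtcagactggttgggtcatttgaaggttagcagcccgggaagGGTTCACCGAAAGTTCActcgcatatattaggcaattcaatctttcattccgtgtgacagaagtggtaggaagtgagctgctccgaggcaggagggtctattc
The Cyp26a1 match was AGTTCACCCAAAGTTCA on the opposite strand of the window, at -32 to -16 from the start. The Rarb match was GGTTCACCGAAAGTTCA on the strand shown, at -53 to -37. Both have a spacer of 5 bases. Across all 32851 windows, 0.0974% held a pair with 5 bases between, 0.268% a pair with 2 bases and 0.222% a pair with 1 base. A match describes the letters and not a bound site, and no binding was measured in these libraries.

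Values are TPM, a transcript abundance that RSEM divides by the effective length of each gene, so that levels of different genes can be compared. Each level is given by 1 library, and the intervals given are exact 95% Poisson intervals of a level or exact 95% Clopper-Pearson intervals of a ratio of TPM. They cover counting error only and not the spread between cultures, which is unknown. Total expected counts lay between 6108252 in mES-Oct4GFP+ and 11496615 in 5C-Oct4GFP+ (primed). A gene was compared between 2 libraries when its TPM was at least 1 in either, and was called higher or lower when log2(TPM + 1) differed by at least 2-fold, a scale that understates the change of low genes. The 9 comparisons share libraries and are not independent of each other. In bulk samples, fewer cells of a type and less RNA per cell cannot be told apart.

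Among cell state markers, the summed level of 6 naïve ones was 1398.1 TPM for mES-Oct4GFP+, 651.99 TPM for 5C-Oct4GFP+ and 1165.44 TPM for 5C-Oct4GFP+ (naive), and between 7.29 and 68.19 TPM in the other 4 libraries. The summed level of 6 primed markers was highest in the primed libraries, at 1519.76 TPM in 5C-Oct4GFP+ (primed) and 1631.18 TPM in R1 ESCs-primed, followed by 606.08 TPM for 5C-Oct4GFP+. Most of the sum in 5C-Oct4GFP+ was Dnmt3b (366.39 TPM) and Otx2 (189.42 TPM), and 4 of the 6 reached 1 TPM. T and Foxa2 did not, at 0.24 and 0.25 TPM against 155.31 and 82.90 TPM in 5C-Oct4GFP+ (primed). The summed level of 7 fibroblast markers was 592.29 TPM in mES-Oct4GFP-, 268.31 TPM for 5C-Oct4GFP-, 216.17 TPM in R1 ESCs-primed and 75.4 TPM in 5C-Oct4GFP+ (primed), against 7.46 to 12.57 TPM in the other 3. All 7 were at or above 1 TPM in those 4 libraries, and none was at 0 in any library. The summed level of 6 primitive or visceral endoderm markers was 144.44 TPM in mES-Oct4GFP-, 96.29 TPM for 5C-Oct4GFP+ (primed) and 62.8 TPM in R1 ESCs-primed, and at most 7.66 TPM elsewhere, where Apoa1 was at 0 in every library and Afp at 0 in all but 5C-Oct4GFP+ (naive).

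**Figure D1:**
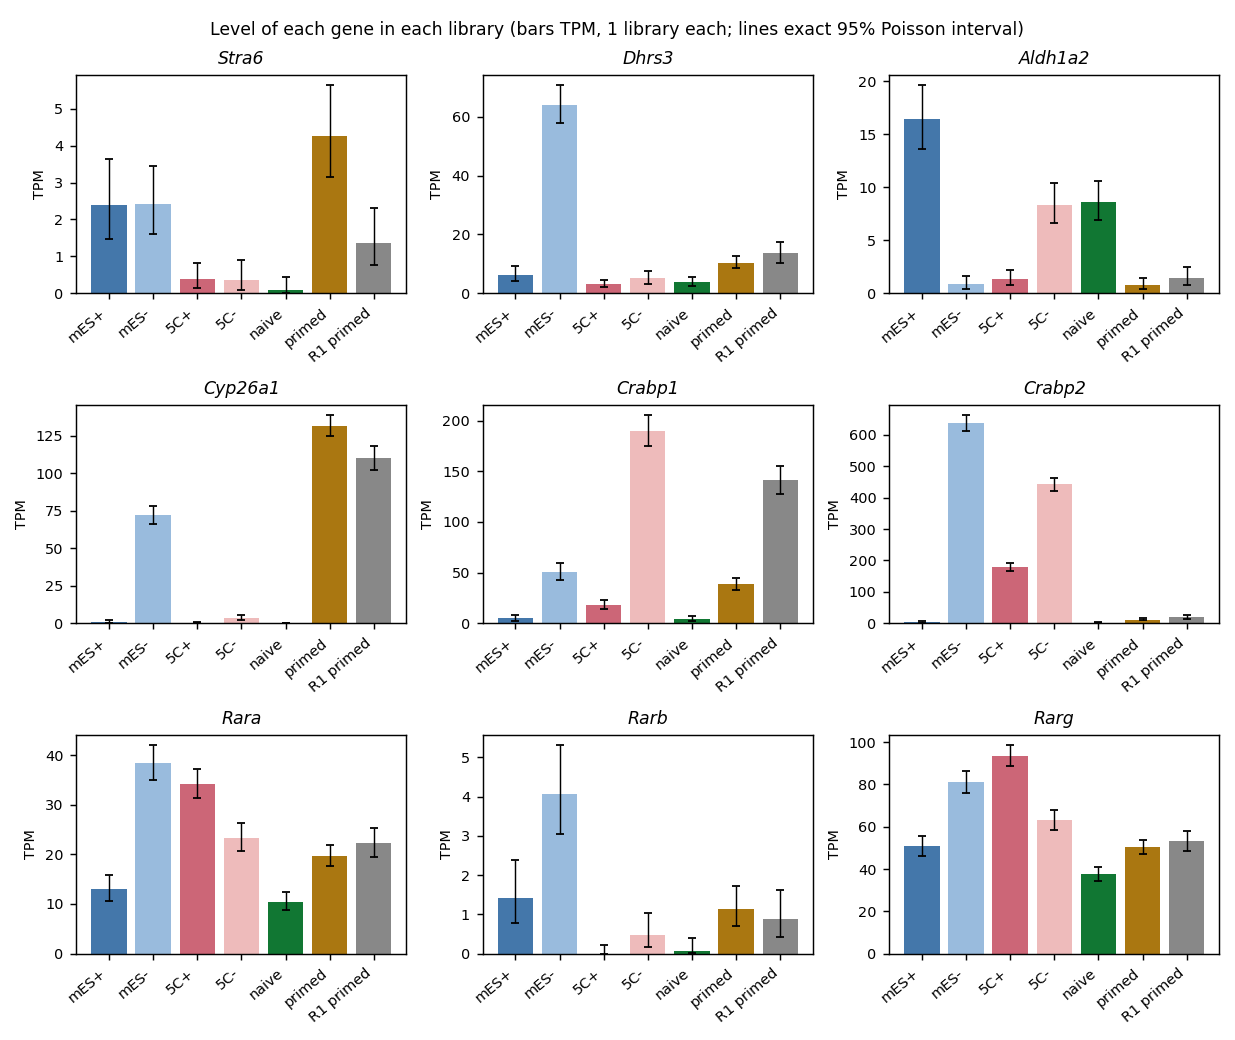
Level of each of the 9 genes in TPM (y axis, linear, a scale of its own for each gene) in each of the 7 libraries (x axis; mES+ and mES- are mES-Oct4GFP+ and mES-Oct4GFP-, 5C+ and 5C- the same for 5C, naive and primed the cells derived from 5C-Oct4GFP+, R1 primed R1 ESCs-primed). Bars are single libraries and lines exact 95% Poisson intervals. Cyp26a1 stands out in 3 libraries, Dhrs3 in mES-Oct4GFP-, and Aldh1a2 in mES-Oct4GFP+, 5C-Oct4GFP- and 5C-Oct4GFP+ (naive).

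Stra6, which encodes the membrane receptor that takes up retinol from its carrier protein, was low in all libraries and at or below 0.38 TPM in the 5C and naïve ones. Its level was 2.38 TPM in the GFP+ and 2.41 TPM in the GFP- cells from mES medium, and 0.38 and 0.35 TPM in those from 5C medium. The later cultures had 0.08 TPM in 5C-Oct4GFP+ (naive), 4.26 TPM in 5C-Oct4GFP+ (primed), while R1 ESCs-primed had 1.37 TPM. The counts behind these were between 1 in 5C-Oct4GFP+ (naive) and 48 in 5C-Oct4GFP+ (primed). The mES libraries were above the 5C libraries in both sorted fractions. The ratio of mES-Oct4GFP+ to 5C-Oct4GFP+ was 6.26 (2.47 to 19.2), and that of mES-Oct4GFP- to 5C-Oct4GFP- was 6.89 (2.39 to 26.7). Between the sorted fractions the ratio was not distinguishable from 1 at these counts, at 1.01 for mES-Oct4GFP- to mES-Oct4GFP+ (0.558 to 1.87) and 1.09 for 5C-Oct4GFP+ to 5C-Oct4GFP- (0.252 to 5.12). The primed library was 11.2 times 5C-Oct4GFP+ (4.85 to 32.4) and 3.11 times R1 ESCs-primed (1.68 to 6.10).

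Dhrs3, whose enzyme returns retinaldehyde to retinol and so limits synthesis, was high in 1 library. Its level was 6.24 TPM in the GFP+ and 64.18 TPM in the GFP- cells from mES medium, and 3.17 and 5.02 TPM in those from 5C medium. In the later cultures the level was 3.64 TPM in 5C-Oct4GFP+ (naive), 10.40 TPM in 5C-Oct4GFP+ (primed), while R1 ESCs-primed had 13.51 TPM. The level in mES-Oct4GFP- was 4.75 times that of the next library, R1 ESCs-primed (3.62 to 6.31). It was 12.8 times that of 5C-Oct4GFP- (8.47 to 20.2). Among the 6 endoderm markers, Apoa1 (61.26 TPM), Gata4 (32.99 TPM), Afp (19.25 TPM) and Sox7 (2.18 TPM) were likewise highest in mES-Oct4GFP-. Sox17 and Gata6 were not, with 18.23 and 10.53 TPM in mES-Oct4GFP- against 60.37 and 28.83 TPM in 5C-Oct4GFP+ (primed) and 35.28 and 18.07 TPM in R1 ESCs-primed. The part of these markers in the level of Dhrs3 was not tested. The 4 lowest libraries, from mES-Oct4GFP+ down to 5C-Oct4GFP+, did not differ between neighbours beyond counting error. The first and last of them did, with mES-Oct4GFP+ at 1.97 times 5C-Oct4GFP+ (1.10 to 3.50). The primed library was 3.28 times 5C-Oct4GFP+ (2.12 to 5.22).

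Aldh1a2, the gene of the enzyme that makes retinoic acid in most of the early embryo, was on opposite sides of the sort in the 2 media. Its level was 16.45 TPM in the GFP+ and 0.83 TPM in the GFP- cells from mES medium, and 1.36 and 8.34 TPM in those from 5C medium. After further culture it stood at 8.60 TPM in 5C-Oct4GFP+ (naive), 0.80 TPM in 5C-Oct4GFP+ (primed), while R1 ESCs-primed had 1.42 TPM. The 4 low libraries rested on 8 to 17 counts each and their neighbours did not differ beyond counting error. In mES medium the GFP+ cells were 19.8 times the GFP- cells (9.77 to 47.1). In 5C medium the GFP- cells were 6.13 times the GFP+ cells (3.60 to 11.1). Naïve culture was accompanied by a level 6.32 times that of 5C-Oct4GFP+ (3.74 to 11.3), so that 5C-Oct4GFP+ (naive) lay at 0.523 of mES-Oct4GFP+ (0.393 to 0.694). The primed library was 0.0930 of the naïve library (0.0447 to 0.174).

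The other enzymes of this family followed another order. Aldh1a3, which encodes a second retinaldehyde dehydrogenase, was at 34.41 TPM in mES-Oct4GFP-, where Aldh1a2 was at 0.83 TPM, and between 3.56 and 9.85 TPM in the other 6 libraries. Aldh1a1 reached 5.30 TPM in 5C-Oct4GFP- and was at most 1.83 TPM elsewhere. The summed level of the family was therefore highest in mES-Oct4GFP- and not in the library with the most Aldh1a2.

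Cyp26a1, which encodes the hydroxylase that removes retinoic acid, ranged from 0 to 1407 counts. Its level was 0.88 TPM in the GFP+ and 72.00 TPM in the GFP- cells from mES medium, and 0.21 and 3.58 TPM in those from 5C medium. The later cultures held 0 TPM in 5C-Oct4GFP+ (naive), 131.57 TPM in 5C-Oct4GFP+ (primed), while R1 ESCs-primed had 109.95 TPM. The 3 GFP+ or naïve libraries held 5, 2 and 0 counts, and the primed library 1407. The primed library was at least 352-fold higher than the naïve library when the latter is set to 3 counts, and the exact interval of the ratio, which allows more counts for a library at 0, had a lower limit of 286. It was 627 times 5C-Oct4GFP+ (176 to 5276), and 1.20 times R1 ESCs-primed (1.09 to 1.31). Among GFP- cells, mES-Oct4GFP- was 20.1 times 5C-Oct4GFP- (13.6 to 31.0). Among GFP+ cells the ratio of mES-Oct4GFP+ to 5C-Oct4GFP+, 4.19, was not distinguishable from 1 at these counts (0.702 to 45.0).

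The 3 libraries with high Cyp26a1 were also the 3 with the highest summed endoderm markers. These markers differed in kind, since Apoa1 was at 61.26 TPM in mES-Oct4GFP- but 2.31 TPM in 5C-Oct4GFP+ (primed), while Sox17 was at 18.23 TPM and 60.37 TPM. Their part in the level of Cyp26a1 was not tested. Cyp26b1 and Cyp26c1, the other hydroxylases of the family, stayed at or below 0.62 TPM in the primed libraries and reached 4.46 and 10.43 TPM in mES-Oct4GFP-.

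Crabp1 and Crabp2 encode small proteins that hold retinoic acid in the cytoplasm, and the ratio between them differed widely between libraries. Crabp1 was at 4.95 TPM in the GFP+ and 50.70 TPM in the GFP- cells from mES medium, and 18.51 and 189.38 TPM in those from 5C medium. Further culture gave 4.07 TPM in 5C-Oct4GFP+ (naive), 38.61 TPM in 5C-Oct4GFP+ (primed), while R1 ESCs-primed had 140.92 TPM. It was higher in GFP- than in GFP+ cells by 10.2 times in both media (5.71 to 20.2 in mES and 8.06 to 13.1 in 5C medium). It was also higher in 5C than in mES medium by 3.74 times in both fractions (2.02 to 7.56 in GFP+ and 3.14 to 4.47 in GFP- cells). R1 ESCs-primed was 3.65 times 5C-Oct4GFP+ (primed) (3.05 to 4.38). The summed fibroblast markers were 216.17 and 75.4 TPM in these 2 libraries, and the part of the markers, or of the feeder fibroblasts on which the primed state of the R1 cells was induced, in the result was not tested.

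Crabp2 was at 4.55 TPM in the GFP+ and 636.55 TPM in the GFP- cells from mES medium, and 179.11 and 441.90 TPM in those from 5C medium. Later values were 2.47 TPM in 5C-Oct4GFP+ (naive), 12.23 TPM in 5C-Oct4GFP+ (primed), while R1 ESCs-primed had 19.70 TPM. The 2 GFP- libraries and 5C-Oct4GFP+ were high and the other 4 low. 5C-Oct4GFP+ was 39.4 times mES-Oct4GFP+ (22.9 to 74.2), while among GFP- cells the 5C library was 0.694 of the mES library (0.651 to 0.740). Naïve culture was accompanied by a level 72.5 times lower than in 5C-Oct4GFP+ (39.3 to 152), and primed culture by one 14.6 times lower (11.4 to 19.1). The fibroblast markers summed to 12.57 TPM in 5C-Oct4GFP+ and 10.39 TPM for mES-Oct4GFP+. Thy1 (5.16 against 0.72 TPM), Twist1 (2.72 against 0.97 TPM) and Prrx1 (0.44 against 0.24 TPM) were the higher ones in 5C-Oct4GFP+, while the other 4, such as Col1a2 (0.90 against 1.82 TPM), were lower there. Their part in the level of Crabp2 was not tested. Of the summed Crabp1 and Crabp2 level, Crabp2 made up 92.6% for mES-Oct4GFP-, 90.6% for 5C-Oct4GFP+ and 70.0% for 5C-Oct4GFP-, but 24.1% in 5C-Oct4GFP+ (primed) and only 12.3% for R1 ESCs-primed.

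Fabp5, which encodes a fatty acid binding protein that also binds retinoic acid, was above both in all libraries but mES-Oct4GFP-. It was at 936.22 TPM in 5C-Oct4GFP-, 442.93 TPM for mES-Oct4GFP-, 312.62 TPM for 5C-Oct4GFP+, 567.99 and 562.14 TPM in the primed libraries, and 86.10 and 72.99 TPM in mES-Oct4GFP+ and 5C-Oct4GFP+ (naive). In mES-Oct4GFP- the summed level of Crabp1 and Crabp2 was 687.25 TPM.

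**Figure D2:**
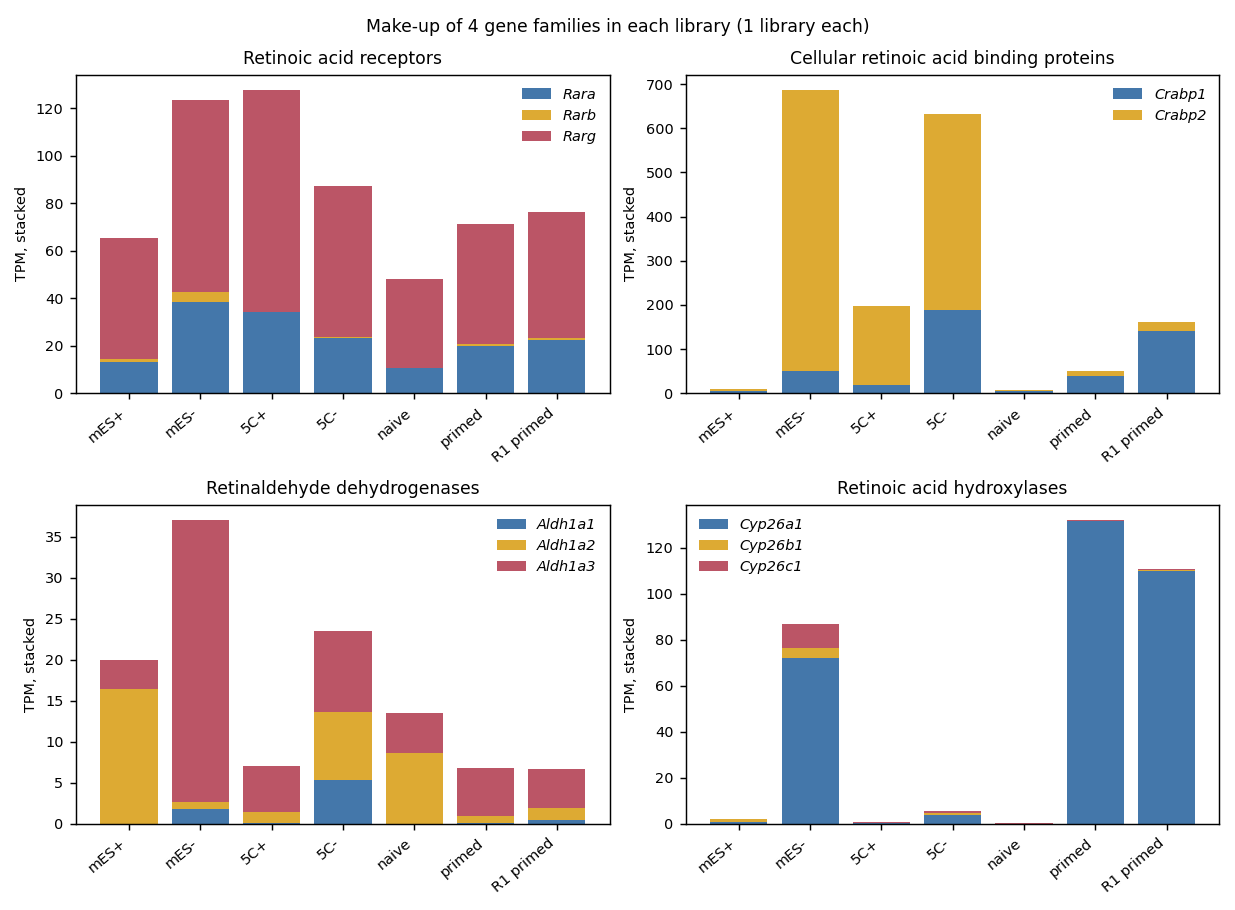
Levels in TPM, stacked (y axis, linear), of the members of 4 gene families in each of the 7 single libraries (x axis, named as in the plot of levels by gene). Rarg makes up most of the receptor level in every library, Crabp2 most of the binding protein level in mES-Oct4GFP-, 5C-Oct4GFP+ and 5C-Oct4GFP-, and Cyp26a1 nearly all of the hydroxylase level in the primed libraries.

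Among the receptors, Rara and Rarg had the narrowest ranges of the 9 genes, whereas Rarb ran from 0 to 4.06 TPM. Rarg, whose receptor is known to be prominent in embryonic stem cells, was at 50.71 TPM in the GFP+ and 80.99 TPM in the GFP- cells from mES medium, and 93.50 and 63.18 TPM in those from 5C medium. The remaining libraries had 37.49 TPM in 5C-Oct4GFP+ (naive), 50.41 TPM in 5C-Oct4GFP+ (primed), while R1 ESCs-primed had 53.15 TPM. The highest and lowest library differed by 2.49 times (2.24 to 2.78), and the middle ones, R1 ESCs-primed, mES-Oct4GFP+ and the primed library, did not differ between neighbours. Rara was at 13.03 TPM in the GFP+ and 38.35 TPM in the GFP- cells from mES medium, and 34.20 and 23.33 TPM in those from 5C medium. The other cultures showed 10.43 TPM in 5C-Oct4GFP+ (naive), 19.69 TPM in 5C-Oct4GFP+ (primed), while R1 ESCs-primed had 22.25 TPM. The lowest levels were in mES-Oct4GFP+ and 5C-Oct4GFP+ (naive), which did not differ beyond counting error (ratio 1.25, 0.955 to 1.63). 5C-Oct4GFP+ was 2.62 times mES-Oct4GFP+ for Rara (2.13 to 3.27) and 1.84 times for Rarg (1.66 to 2.05). Rarg made up between 65.6% and 78.1% of the summed level of the 3 receptors in each library, and Rara between 20.0% and 31.1%.

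Rarb, which retinoic acid itself is known to induce, was close to the detection limit. It was at 1.42 TPM in the GFP+ and 4.06 TPM in the GFP- cells from mES medium, and 0 and 0.47 TPM in those from 5C medium. Among the later cultures it was at 0.07 TPM in 5C-Oct4GFP+ (naive), 1.13 TPM in 5C-Oct4GFP+ (primed), while R1 ESCs-primed had 0.88 TPM. Both mES libraries were above their 5C counterparts. mES-Oct4GFP- was 8.64 times 5C-Oct4GFP- (3.68 to 24.3), and mES-Oct4GFP+, with 14 counts, was at least 8.0-fold higher than 5C-Oct4GFP+, with 0 counts set to 3 (lower limit of the exact interval 5.69). These values are uncertain. Of the 3108 exonic bases of the Rarb transcript in the tables, 1793 overlap exons of Top2b, a topoisomerase gene on the opposite strand at 18.58 to 110.23 TPM, and the strand setting of the counting is not given. Within mES medium Top2b moved with Rarb, from 31.19 TPM in the GFP+ to 81.17 TPM in the GFP- cells, at 22.0 and 20.0 times the level of Rarb. It was also higher in 5C-Oct4GFP- (110.23 TPM) than in 5C-Oct4GFP+ (43.67 TPM), and in 5C-Oct4GFP+ (primed) (66.37 TPM) than in 5C-Oct4GFP+ (naive) (18.58 TPM), as Rarb was. Between media it went the other way, since each 5C library was above the mES library of the same sorted fraction for Top2b and below it for Rarb. The part of the overlap in the level of Rarb was not tested.

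Among the partners of the receptors, Rxrb was even, between 47.33 and 59.60 TPM in all 7 libraries. Rxra was higher in GFP- than in GFP+ cells, at 48.29 against 7.49 TPM in mES and 35.29 against 12.49 TPM in 5C medium. Rxrg was at 15.50 TPM in 5C-Oct4GFP+ (primed) and 21.52 TPM in R1 ESCs-primed and at most 3.25 TPM elsewhere.

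In the order of levels of each gene over the 7 libraries there were 54 neighbouring pairs, of which 27 differed beyond counting error and 27 did not. The widest ranges were those of Crabp2 (258-fold) and Cyp26a1 (at least 352-fold), and the narrowest those of Rarg (2.49-fold) and Rara (3.68-fold). mES-Oct4GFP- was the highest library for Dhrs3, Crabp2, Rara and Rarb, and 5C-Oct4GFP+ (naive) the lowest for Cyp26a1, Rara, Rarg, Crabp1, Crabp2 and Stra6. Of these, the first place for Rara was not separated from 5C-Oct4GFP+ by counting error (1.12, 0.987 to 1.27), and the last place was separated from the next library for Rarg only.

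**Figure D3:**
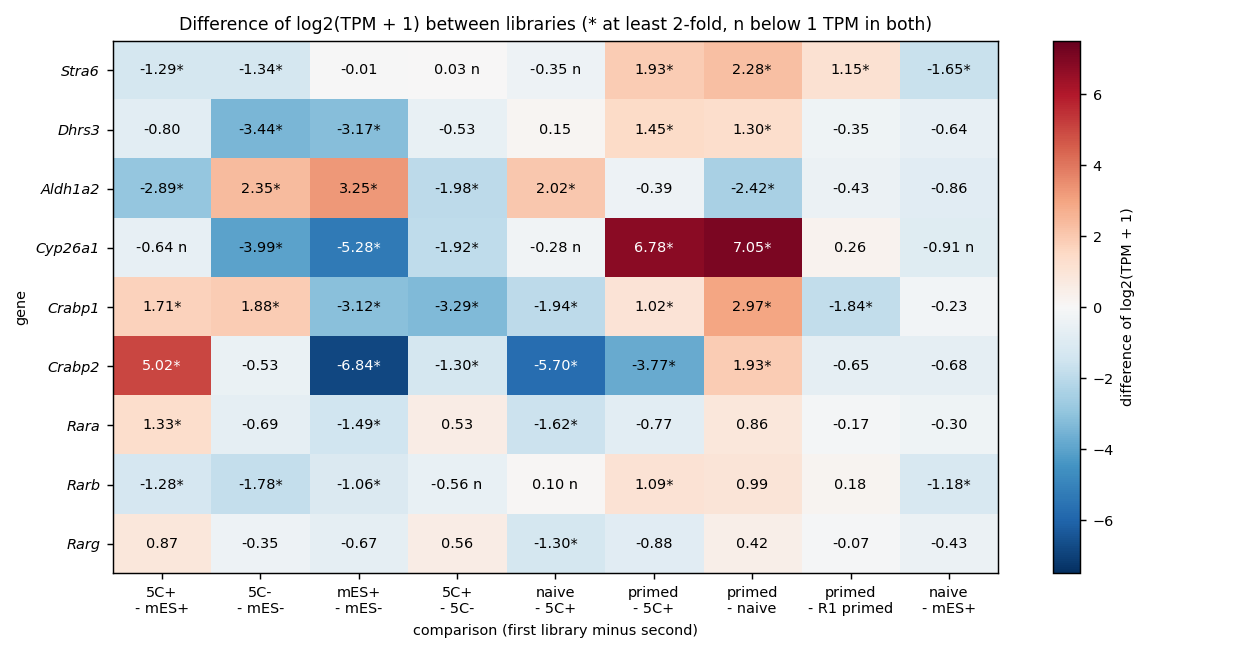
Difference of log2(TPM + 1) of each of the 9 genes (rows) in each of the 9 comparisons (columns, first library minus second, named as in the plot of levels by gene), with its value in each cell. An asterisk marks a difference of at least 2-fold and n a gene below 1 TPM in both libraries, and the extremes are Cyp26a1 with 7.05 for primed minus naive and Crabp2 with -6.84 for mES-Oct4GFP+ minus mES-Oct4GFP-.

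The comparison of 5C with mES medium in GFP+ cells split the 9 genes. Of the 8 compared, Crabp1, Crabp2 and Rara were higher and Aldh1a2, Rarb and Stra6 lower in 5C-Oct4GFP+, while 13.7% of all 15196 genes compared were higher and 13.5% lower. The median difference was 0.04 on log2(TPM + 1) for these genes and -0.06 over all genes. In GFP- cells, Crabp1 and Aldh1a2 were higher and Cyp26a1, Dhrs3, Rarb and Stra6 lower in 5C-Oct4GFP- among the 9 compared, against 9.68% higher and 10.1% lower over all genes. The median was -0.69, and 0.03 over all genes. The summed fibroblast markers were 268.31 against 592.29 TPM and the endoderm markers 7.66 against 144.44 TPM in these GFP- libraries, and their part was not tested. Crabp1, Rarb and Stra6 were thus called in the same direction in both fractions. Dhrs3 missed the threshold in GFP+ cells but was lower there too, with 5C-Oct4GFP+ at 0.508 of mES-Oct4GFP+ (0.286 to 0.907).

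Most of the genes called between the sorted fractions were lower in GFP+ cells. In mES medium 1 gene, Aldh1a2, was higher in GFP+ cells and 6 were lower, namely Cyp26a1, Crabp1, Crabp2, Dhrs3, Rara and Rarb. Over all genes 17.9% were higher and 28.8% lower, and the medians were -1.49 and -0.15. In 5C medium 7 genes could be compared, of which none was higher and Cyp26a1, Crabp1, Crabp2 and Aldh1a2 were lower in GFP+ cells. Over all genes 8.45% were higher and 22.6% lower, with medians of -1.30 and -0.25. The fibroblast markers were lower in the GFP+ cells of both media, with their sums at 10.39 against 592.29 TPM and 12.57 against 268.31 TPM. The endoderm markers were lower there too, at 4.39 against 144.44 TPM and 2.01 against 7.66 TPM, and the part of both lists in these differences was not tested.

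Crabp1 was lower after naïve and higher after primed culture, while Crabp2 was lower after both. From 5C-Oct4GFP+ to 5C-Oct4GFP+ (naive), 6 genes could be compared. Aldh1a2 was higher and Crabp1, Crabp2, Rara and Rarg were lower, beside 10% and 17.5% of all genes, with medians of -1.46 and -0.10. From 5C-Oct4GFP+ to 5C-Oct4GFP+ (primed), Cyp26a1, Stra6, Dhrs3, Rarb and Crabp1 were higher and Crabp2 lower among 9, beside 13.7% and 16.1% of all genes, with medians of 1.02 and 0.06. Rara and Rarg were within the threshold in the primed library, at 0.576 (0.501 to 0.661) and 0.539 (0.494 to 0.588) of 5C-Oct4GFP+. The summed fibroblast markers were 12.57 TPM in 5C-Oct4GFP+, 7.46 TPM for 5C-Oct4GFP+ (naive) and 75.4 TPM in 5C-Oct4GFP+ (primed), and the endoderm markers 2.01, 2.17 and 96.29 TPM, and their part in the differences was not tested. Between the primed and the naïve library, Cyp26a1, Crabp1, Crabp2, Stra6 and Dhrs3 were higher in the primed one and Aldh1a2 lower, beside 22.2% and 16.7% of all genes, with medians of 1.30 and 0.14. Rarb missed the threshold there, with 0.99 on log2(TPM + 1) and a ratio of 16.1 (2.54 to 652) that rests on 1 count in the naïve library.

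Fewer genes differed in the last 2 comparisons. Between 5C-Oct4GFP+ (primed) and R1 ESCs-primed, Stra6 was higher and Crabp1 lower in the former and 7 of 9 genes were within 2-fold, where 2.30% of all genes were higher and 5.09% lower. Between 5C-Oct4GFP+ (naive) and mES-Oct4GFP+, none of 8 genes was higher and Rarb and Stra6 were lower, where 2.49% of all genes were higher and 6.27% lower. The naïve library had 1 count for each of the 2.

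The wider retinoid list holds 65 genes in 8 roles, the 9 included. mES-Oct4GFP- stood apart for the transport genes, with Rbp4, the carrier of retinol in blood, at 177.30 TPM and at most 7.67 TPM in the other libraries. Ttr, the serum partner of that carrier, was at 36.00 TPM there and at most 0.20 TPM elsewhere. Both are made by liver and yolk sac endoderm. Of the endoderm markers, Apoa1, Afp, Gata4 and Sox7 were also highest there. Sox17 (18.23 TPM) and Gata6 (10.53 TPM) were not, with 60.37 and 28.83 TPM in 5C-Oct4GFP+ (primed) and 35.28 and 18.07 TPM in R1 ESCs-primed. The part of these markers in the levels of Rbp4 and Ttr was not tested.

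In mES-Oct4GFP+ against mES-Oct4GFP-, 11 of 59 listed genes compared were higher and 33 lower, beside 17.9% and 28.8% of all genes. The lower ones were 3 of 3 breakdown genes, 3 of 3 binding proteins, 4 of 6 receptors, 9 of 16 induced targets, 7 of 15 genes of retinol oxidation and retinaldehyde reduction, 2 of 3 of retinaldehyde oxidation, 3 of 7 transport genes and 2 of 6 coregulators. The higher ones were 4 induced targets, 3 transport genes, 2 of retinol oxidation and retinaldehyde reduction, 1 of retinaldehyde oxidation and 1 coregulator. In 5C-Oct4GFP+ against 5C-Oct4GFP-, 1 of 47 was higher and 23 lower, the one being Ncoa3, a receptor coactivator gene, at 111.56 against 20.61 TPM, where 8.45% of all genes were higher and 22.6% lower. Between media, 11 of 48 genes were higher and 15 lower for 5C-Oct4GFP+ against mES-Oct4GFP+, beside 13.7% and 13.5% of all genes. For 5C-Oct4GFP- against mES-Oct4GFP-, 8 of 54 were higher and 14 lower, beside 9.68% and 10.1%.

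For the later cultures, 10 of 43 genes were higher and 12 lower in 5C-Oct4GFP+ (naive) than in 5C-Oct4GFP+, beside 10% and 17.5% of all genes. In 5C-Oct4GFP+ (primed) 11 of 43 were higher and 11 lower, beside 13.7% and 16.1%. From naïve to primed, 15 of 49 were higher and 12 lower, beside 22.2% and 16.7%. R1 ESCs-primed differed from 5C-Oct4GFP+ (primed) in 9 of 43, of which 8 were lower in the latter and 7 of these are induced targets, where 2.3% of all genes were higher and 5.09% lower. Meis2, a homeobox gene, was the largest of these, at 0.68 against 10.82 TPM. 5C-Oct4GFP+ (naive) was lower than mES-Oct4GFP+ in 11 of 45 genes and higher in 0, beside 6.27% and 2.49% of all genes.

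**Figure D4:**
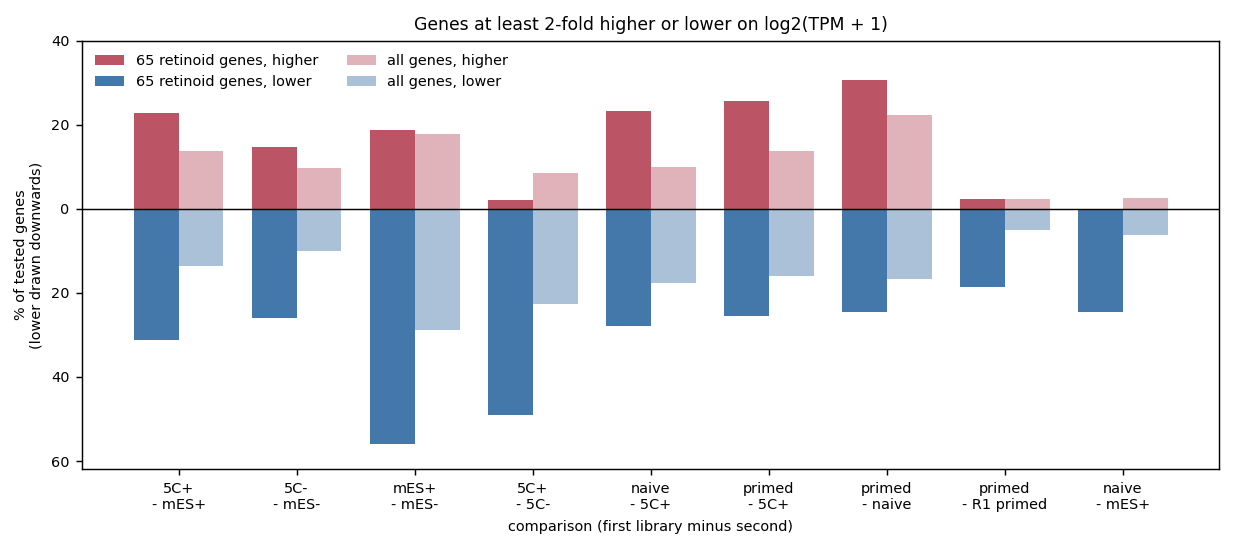
Share of the genes compared (y axis, percent) that were at least 2-fold higher (upward bars) or lower (downward bars) in the first library of each of the 9 comparisons (x axis), for the 65 retinoid genes (dark bars) and for all genes (pale bars). The lower shares of the list are largest for mES-Oct4GFP+ minus mES-Oct4GFP-, with 33 of 59 genes, and 5C-Oct4GFP+ minus 5C-Oct4GFP-, with 23 of 47.

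The 16 genes known to be induced by retinoic acid did not move as 1 group. Stra8, a meiosis gene named for its induction by retinoic acid, was at 306.21 TPM in mES-Oct4GFP+, 0.33 TPM for mES-Oct4GFP-, 4.67 TPM in 5C-Oct4GFP+ (naive) and 0 TPM in the other 4 libraries. mES-Oct4GFP+ was at least 680-fold higher than 5C-Oct4GFP+, with the latter set to 3 counts (lower limit of the exact interval 552). Cdx1, a homeobox gene, was at 147.59 TPM in mES-Oct4GFP+, 69.31 TPM for 5C-Oct4GFP+ (naive) and at most 0.73 TPM in the other 5. For both genes, as for Aldh1a2, mES-Oct4GFP+ came first and 5C-Oct4GFP+ (naive) second, although the second place of Aldh1a2 was not separated from 5C-Oct4GFP- by counting error.

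In GFP+ against GFP- cells, 9 of 16 induced targets were lower and 4 higher in mES medium, and 10 of 13 compared were lower and 0 higher in 5C medium, beside the shares of all genes given above for the sorted fractions. Tgm2, which encodes a transglutaminase, was at 133.68 TPM in mES-Oct4GFP-, 39.24 TPM for 5C-Oct4GFP-, 17.31 TPM in 5C-Oct4GFP+ and at most 6.18 TPM elsewhere. Rec8, a meiotic cohesin gene, was highest in mES-Oct4GFP+, at 94.99 TPM. It was at 39.32 TPM in mES-Oct4GFP-, above 5C-Oct4GFP+ (23.79 TPM) and 5C-Oct4GFP+ (naive) (24.65 TPM), and at 0.62 and 1.60 TPM in the primed libraries. In 5C-Oct4GFP+, 7 of 12 induced targets compared were lower than in mES-Oct4GFP+ and 3 were higher, beside 13.5% and 13.7% of all genes.

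**Figure D5:**
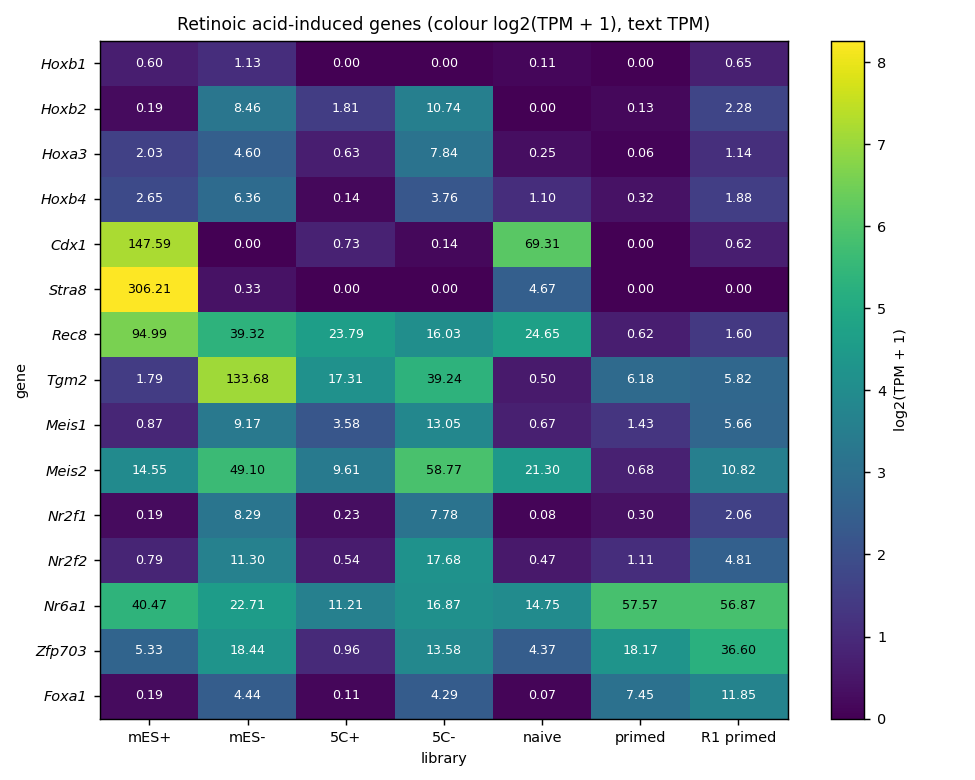
Levels of 15 of the 16 genes known to be induced by retinoic acid (rows) in each of the 7 single libraries (columns, named as in the plot of levels by gene), with colour for log2(TPM + 1) and the TPM printed in each cell. Stra8 and Cdx1 are highest in mES-Oct4GFP+ (306.21 and 147.59 TPM) and Tgm2 in mES-Oct4GFP- (133.68 TPM).

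For the 7 genes that reached 10 TPM in some library, the 3 genes most like each were found by Pearson's r of log2(TPM + 1) over the 7 libraries among 11751 candidates. With so few points and so many candidates, high values of r are easily reached, and they are given as a description. For Cyp26a1 they were Cobll1 (r = 0.997), Amot (0.993) and Flt1 (0.990), of which Amot was at 363.75 TPM in 5C-Oct4GFP+ (primed), 220.17 TPM in R1 ESCs-primed and 156.67 TPM in mES-Oct4GFP-. For Crabp1 they were the collagen gene Col6a3 (0.998), Fabp7 (0.984) and Nptx1 (0.984). For Crabp2 they were Rab3d (0.996), Myo18a (0.995) and Rad9b (0.993). For Aldh1a2 they were Gad1 (0.984), Anapc5 (0.981) and Lin37 (0.975), and Gad1 was at 16.59 TPM in mES-Oct4GFP+ and 8.30 TPM in 5C-Oct4GFP+ (naive). For Dhrs3 they were Rbp4 (0.981), Uaca (0.977) and Dcp1a (0.974). For Rara they were Atp5s (0.989), Mcts1 (0.983) and Ptpn14 (0.977), and for Rarg Ptk2b (0.977), Arhgap12 (0.973) and S1pr2 (0.966).

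Among the 9 genes themselves, r over the 7 libraries was 0.93 between Rara and Rarg, 0.92 between Rarb and Dhrs3, 0.89 between Rara and Crabp2, and -0.72 between Rara and Aldh1a2. 5C-Oct4GFP+ is the source of the naïve and primed libraries and each sorted pair shares a medium, so that the 7 points are not independent. Rarb and Cyp26a1, whose promoter windows hold the pair of half-sites shown above, had r = 0.64. Higher values were seen with Dhrs3 and Stra6, whose windows held no match. Cyp26a1 had r = 0.75 with Dhrs3 and 0.71 with Stra6, and Rarb had 0.75 with Stra6. The level of Rarb is uncertain because of the overlap with Top2b.

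On GRCm38 with the GENCODE M21 annotation the 9 protein-coding genes lie on 7 chromosomes. Cyp26a1 is at chr19:37697798-37701536, Rara at chr11:98927818-98974942, Rarb at chr14:16430839-16819156, Rarg at chr15:102234938-102257517, Crabp2 at chr3:87948666-87953376 and Dhrs3 at chr4:144892827-144928209. The other 3 lie on chromosome 9, with Crabp1 at chr9:54764748-54773110, Stra6 at chr9:58063788-58153996 and Aldh1a2 at chr9:71215789-71296243. Rarb and Rarg are on the minus strand.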

How the data were processed

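Total RNA of 7 groups, with 1 library each, was made into libraries with the Illumina TruSeq RNA kit by the authors. Per the labels, the processing used Bowtie, RSEM and the mm10 build. Versions and the strand setting are not given in the sources used here. Per Ensembl gene, the deposited tables hold expected counts, which RSEM estimates and which were not normalized. The authors calculated TPM with RSEM by dividing counts by effective length and bringing all libraries to a common sum. The FPKM values were also calculated by the authors, per length and per mapped fragments.

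TPM served for levels and differences, with a pseudocount of 1, a minimum of 1 TPM in either library and a threshold of 2-fold. Expected counts were rounded for exact intervals at 95%, and a level of 0 was replaced by 3 counts for a bound. With 1 library per group, no model was fitted and no replicate could be left out. The 9 genes, the 65-gene list by role and the 35 marker genes were chosen with earlier results of these data known. Named were the 9 genes, in each comparison the 2 genes of the list with the largest rise and the 2 with the largest fall, and the 3 genes most like each of the 9. Other genes of the same families, marker genes and targets, and the pairs of the 9 genes given with r, were named after their values were seen. A few genes of the list are not reported here by name. Coordinates came from GENCODE M21 (GRCm38, the sequence of mm10) and promoters from RefSeq. Symbols were matched for 28756 of the 29267 genes. Alternatives were a pseudocount of 0.1, a minimum of 5 TPM, no minimum, FPKM, and median-ratio scaling. The procedure was tested on simulated data. The software was Python 3.11.15 with scipy 1.17.1, pandas 2.3.3, numpy 2.4.6 and, for plots, matplotlib 3.10.9.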

Additional observations from a re-analysis of the deposited data

Results flagged for a closer look

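For 5 genes of the retinoid list the difference between 5C and mES medium had opposite directions, each at least 2-fold, in GFP+ and GFP- cells. With 1 library per group this difference was not tested. For Aldh1a2 the difference of log2(TPM + 1), 5C minus mES medium, was -2.89 in GFP+ and 2.35 in GFP- cells, so that the 2 differed by -5.24. The same 4 libraries give -1.98 for GFP+ minus GFP- cells in 5C medium and 3.25 in mES medium. For Tgm2 the difference between media was 2.71 in GFP+ and -1.74 in GFP- cells (4.46 between the 2). For Rbp7, a gene of an intracellular retinol binding protein, it was -1.38 and 2.03 (-3.42), and GFP+ minus GFP- was -2.39 in 5C and 1.02 in mES medium. For Rbp2, which encodes a related protein, it was -1.55 and 1.53 (-3.08), and GFP+ minus GFP- was -1.16 in 5C and 1.92 in mES medium. These values of Rbp2 rest on 5 counts in the GFP+ and 0 in the GFP- cells from mES medium and on 1 and 4 counts in those from 5C medium, and in GFP- cells the exact interval of the ratio includes 1 (lower limit 0.711). Rbp7 rests on 8, 4, 3 and 23 counts in the same order, and its interval between media in GFP+ cells includes 1 (0.0416 to 1.01). For Rdh9, a retinol dehydrogenase gene, it was -1.05 and 1.01 (-2.05), with 1 count in mES-Oct4GFP-. The levels of Rbp2, Rbp7 and Rdh9 were at most 2.79, 9.88 and 3.73 TPM.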

How the results depend on the processing

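The 18 counts of genes at least 2-fold different (9 comparisons, for the 9 genes and for the 65-gene list) stayed within 1.5 times under a pseudocount of 0.1, without a minimum and with median-ratio scaling. Dropping the minimum could not add a call, since genes below 1 TPM in both libraries cannot differ by 2-fold on log2(TPM + 1). With a minimum of 5 TPM, the count of the 9 genes fell from 2 to 1 for 5C-Oct4GFP+ (primed) against R1 ESCs-primed and from 2 to 0 for 5C-Oct4GFP+ (naive) against mES-Oct4GFP+, and that of the list from 26 to 15 for 5C-Oct4GFP+ against mES-Oct4GFP+, 22 to 12 for naive against 5C-Oct4GFP+, 9 to 3 for primed against R1 ESCs-primed and 11 to 5 for naive against mES-Oct4GFP+. Fewer genes were compared under this minimum. With FPKM the counts of the 9 genes were 1 and 1 in the last 2 comparisons, and those of the list 5 and 6. FPKM values were smaller than TPM, such as 72.01 against 131.57 for Cyp26a1 in 5C-Oct4GFP+ (primed), while the pseudocount and the minimum stayed at 1. The part of this in the counts was not tested. Of the 81 differences of the 9 genes, 44 were called, and of 132 alternative values of these none was reversed. No reversal was possible, so this count says nothing about robustness. A change of pseudocount keeps the sign, and FPKM and median-ratio scaling rescale all genes of a library together. Their factors, such as size factors of 0.889 to 1.13, differed too little between libraries to reverse a 2-fold difference. Of the 132 values, 113 lay within the counting interval. Over all 81, the pseudocount of 0.1 moved 23 beyond that interval, all of Cyp26a1, Rarb, Aldh1a2 or Stra6, and took Rarb in primed against naive from 0.99 to 2.86, past the threshold. Median-ratio scaling moved the median of all genes by 0.139 to 0.204 in mES-Oct4GFP+ and 5C-Oct4GFP+ against their GFP- cells, by 0.108 for naive against 5C-Oct4GFP+, by 0.153 for naive against mES-Oct4GFP+ and by -0.171 for primed against naive. FPKM moved it by 0.116 in mES-Oct4GFP+ against mES-Oct4GFP-.

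No paired analysis was possible because each group has 1 library and no result comes from a test. No spread between cultures can be given, and intervals cover counting error only. Stra6, Rarb, Rbp2, Rbp7 and the low levels of Aldh1a2, Cyp26a1 and Rdh9 rest on few counts.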
